A study of Mus musculus with 4 samples.

Results

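The natriuretic peptide system of the embryonic mouse heart was followed through 6 genes: the peptide genes Nppa and Nppb, the receptor genes Npr1, Npr2 and Npr3, and Pam, which encodes a peptide-processing enzyme of secretory granules. They are 6 of the 12393 genes for which the platform annotation gives a probe set with 1 gene symbol, and they were read by 8 of the 20380 such probe sets. Npr3 has 3 probe sets and each of the other genes has 1. Both groups came from wild-type C57BL/6 embryos between embryonic days 10.5 and 11.0. The junction between atria and ventricles (AV junction) and the ventricular region were dissected from about 80 hearts, and 230 ng of junction RNA and 250 ng of ventricular RNA were amplified. Each region was read on 2 Affymetrix MOE430A arrays, labelled replicate 1a and 1b and described as duplicate hybridisations. Nothing says that a and b came from separate pools of hearts, so the p-values cover the spread between these arrays, which may be technical, and not the spread between hearts. An exact permutation of 2 against 2 arrays cannot give a two-sided p below 0.333.

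Nppa encodes the precursor of atrial natriuretic peptide and Nppb that of B-type natriuretic peptide, hormones that heart muscle releases when it is stretched. Npr1 is the guanylyl cyclase that answers both peptides by making cyclic GMP, Npr2 is the related receptor of C-type natriuretic peptide, and Npr3 is the clearance receptor, which binds the peptides and removes them. Pam adds the amide group to the end of many peptide hormones and is also a main membrane protein of the granules that store the atrial peptide. In the embryo Nppa marks the muscle of the forming chambers and is known to be held off in the muscle of the AV canal, where the T-box repressors Tbx2 and Tbx3 are present.

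The promoters of Nppa and Nppb are shown because these neighbouring genes had the largest differences among the members. The sequences are those of RefSeq on GRCm38.p6, from 250 bases before the annotated start to 50 bases from it on, 5′ to 3′ on the plus strand, at chr4:148000472-148000771 for Nppa and chr4:147985650-147985949 for Nppb. Capitals mark matches, on either strand, to a T-box element (GTGTGA), an NK homeodomain element of the kind Nkx2-5 binds (TNAAGTG), the element of GATA factors (searched as GATAA), the M-CAT element of TEAD factors (CATTCC) and the core promoter element of the same letters as its name (searched as TATAAA).
Nppa: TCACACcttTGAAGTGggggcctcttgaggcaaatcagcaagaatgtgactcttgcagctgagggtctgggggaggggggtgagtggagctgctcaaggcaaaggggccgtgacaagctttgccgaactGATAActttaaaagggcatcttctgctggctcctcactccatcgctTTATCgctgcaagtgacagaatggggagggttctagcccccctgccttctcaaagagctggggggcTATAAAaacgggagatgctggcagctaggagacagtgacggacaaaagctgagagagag
Nppb: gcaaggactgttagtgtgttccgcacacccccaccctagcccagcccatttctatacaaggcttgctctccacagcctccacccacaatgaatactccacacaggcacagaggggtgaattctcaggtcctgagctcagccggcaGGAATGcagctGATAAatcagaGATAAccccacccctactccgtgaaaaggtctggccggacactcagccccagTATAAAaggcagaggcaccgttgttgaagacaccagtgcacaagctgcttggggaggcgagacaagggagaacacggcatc

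The Nppa window opened with a T-box match on the minus strand, TCACAC, 250 bases before the start. An NK match, TGAAGTG, followed after 3 bases, and an arrangement of this kind in the Nppa promoter has been described as a site where Tbx2 and Nkx2-5 bind side by side. The Nppb window held neither motif. Both windows held 2 GATA matches, 121 and 75 bases before the start of Nppa and 94 and 83 before that of Nppb, and both held a TATA match. The TATA match of Nppb began 31 bases before the start and that of Nppa 9 bases before it. An M-CAT match on the minus strand, printed as GGAATG, was found in the Nppb window alone of the pair, 105 bases before the start. Of all 32851 promoter windows of that length in the table, 14.5% held the T-box motif, 11.5% the NK motif, 25.4% the GATA motif, 14.7% the M-CAT motif and 13.6% the TATA motif. The CArG box, an element that serum response factor binds, was searched in its strict form only. A strict match was in neither window and in 1.63% of all. Near matches, such as ctttaaaagg in the Nppa window, were not counted, and binding of serum response factor there was not tested. None of the 6 motifs was in the windows of Npr1, Npr2, Npr3 or Pam. No matches overlapped one another. A match is a run of letters and not a measured binding site.

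**Figure D1:**
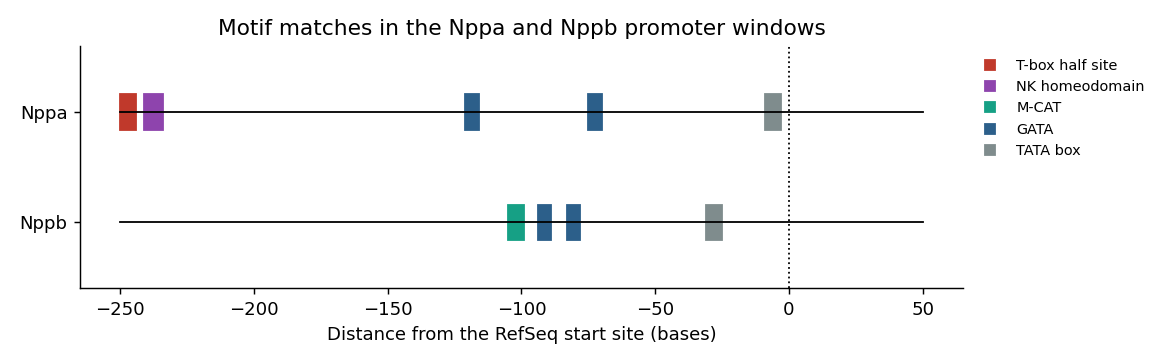
Motif matches in the RefSeq promoter windows of Nppa and Nppb, plotted by distance in bases from the annotated start site (dotted line); each block is a match on either strand, coloured by motif. The T-box and NK matches lie at the far end of the Nppa window, 250 and 241 bases before the start, while each gene has 2 GATA matches and a TATA match.

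Intensities below are the deposited values scaled to a trimmed mean of 500 on each array. A log2 fold above 0 means higher in the AV junction, and it was fitted on log2 of the scaled intensity plus 50. A probe set passed at a limma Benjamini-Hochberg adjusted p of at most 0.05 over the 13403 probe sets bright enough to test. The brightest of 27 control probe sets for Bacillus subtilis, taken as a background, read 52.6 to 58.6 on the AV arrays and 97.9 to 104 on the ventricular arrays. Arrays of the same region correlated at Pearson's r of 0.979 and 0.981 over the tested probe sets, and arrays of different regions at 0.947 to 0.950. The 3'/5' intensity ratio was 16.6 to 23.4 for actin and 15.0 to 18.4 for Gapdh. Ratios this far above 1 mean a strong bias to the 3' end of transcripts, so probe sets away from that end may read low. Its effect on single probe sets was not tested. All 4 arrays were of 1 chip lot and were scanned on 1 day.

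Of the 8 member probe sets 4 were bright enough to test. Among these 3 were lower in the AV junction (Nppa, Nppb and Pam), 0 were higher, and the brightest Npr3 probe set did not pass. By limma, 0 were also higher at an unadjusted p under 0.05, which 31.2% of all probe sets tested reached in either direction. At the adjusted threshold 6.58% of all probe sets tested were lower and 7.24% higher. The arrays of the regions did not overlap for 3 of the 4, against 61.2% of all probe sets tested.

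**Figure D2:**
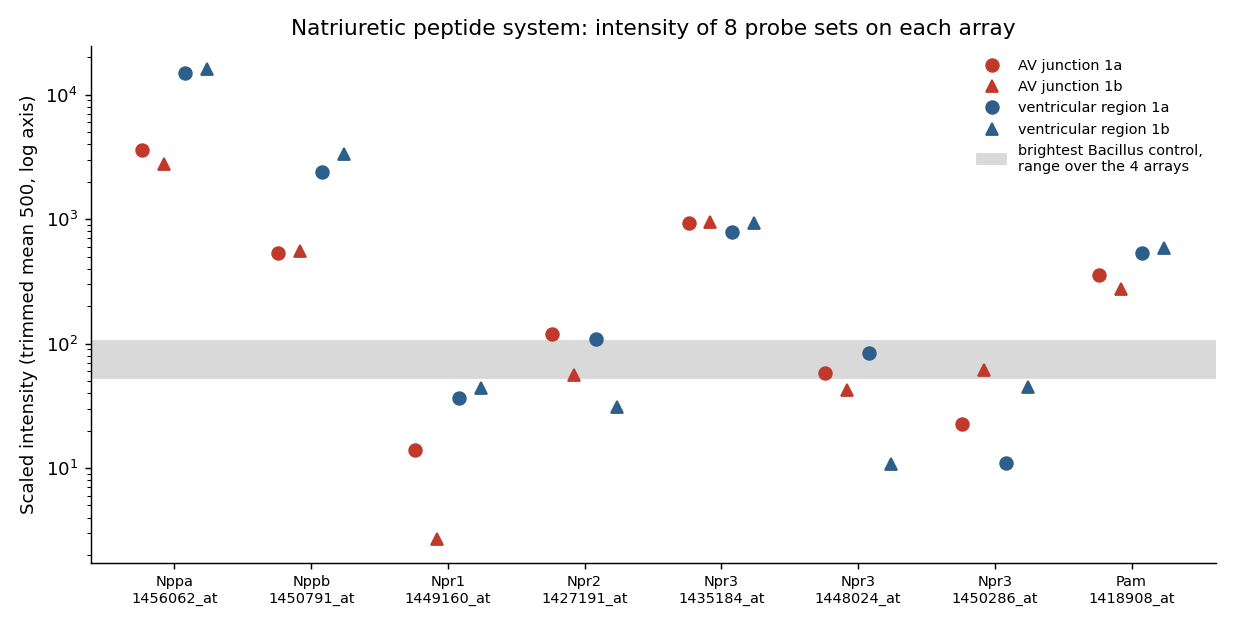
Scaled intensity (log axis) of the 8 probe sets of the 6 genes on each array, AV junction in red and ventricular region in blue, circles for replicate 1a and triangles for 1b; the grey band spans the brightest Bacillus control of each array, 52.6 to 104. Nppa, Nppb and Pam are lower on both AV arrays, and the first Npr3 probe set is level between regions. Npr1 lies below the band on every array. The readings of Npr2 and of the other Npr3 probe sets are spread from close above the band to below it.

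Nppa was far lower in the AV junction. Its probe set 1456062_at gave 3573 and 2772 on the AV arrays, against 14997 and 15945 on the ventricular ones. Both AV arrays were far below both ventricular arrays, and the lower ventricular array was 4.20 times the higher AV array. The region means were 3172 ± 567 and 15471 ± 670 (SD, n = 2), so Nppa was 4.88 times as bright in the ventricular region. The arrays of a region differed by 1.29 times (AV junction) and 1.06 times (ventricular region). The log2 fold was −2.28 with an SE of 0.13 (limma, adjusted p = 1.74e-04), and it ranked 3 from the lowest among the 8410 genes tested. The AV arrays were themselves far above the Bacillus control, so Nppa signal was present in the junction sample as well.

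Nppb fell by nearly the same amount from a lower signal. Its probe set 1450791_at gave 533 and 555 on the AV arrays, against 2369 and 3335 on the ventricular ones. The AV arrays were close together, while the ventricular arrays differed by 1.41 times. The groups did not overlap, and the lower ventricular array was 4.27 times the higher AV array. With region means of 544 ± 15.97 and 2852 ± 683 (SD, n = 2), Nppb was 5.24 times as bright in the ventricular region. The log2 fold was −2.27 with an SE of 0.16 (limma, adjusted p = 4.12e-04), which ranked 4 from the lowest, next to Nppa. The 95% intervals of the log2 folds, −2.58 to −1.98 for Nppa and −2.65 to −1.89 for Nppb, overlapped over most of their length. A difference between their folds was not tested.

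The clearance receptor gene Npr3 read nearly the same in both regions. Its brightest probe set, 1435184_at, gave 930 and 945 on the AV arrays, against 783 and 936 on the ventricular ones, all far above the control. Ventricular array 1a was the low reading, and the other 3 arrays lay within a narrow range. The log2 fold was 0.12 with an SE of 0.13 and a 95% interval of −0.18 to 0.42 (limma, adjusted p = 0.545). The interval does not reach the size of the Nppa or Nppb fold in either direction. Without ventricular array 1a the log2 fold was 0.00 and without ventricular array 1b 0.25.

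The remaining Npr3 probe sets gave no usable level. Probe set 1448024_at gave 58.0 and 42.2 on the AV arrays, against 83.5 and 10.7 on the ventricular ones, all below the control of each array. Probe set 1450286_at read 22.5 and 61.0 in the AV junction and 11.1 and 44.9 in the ventricular region, with 1 of the 4 arrays above the control. In both the regions overlapped, and neither was bright enough to test.

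The cyclase receptors were near or below background. Npr2, on 1427191_at, read 120 and 56.3 in the AV junction and 108 and 30.9 in the ventricular region. In each region array 1a was the higher, the regions overlapped, and 3 of the 4 arrays were above their control. Npr1, on 1449160_at, read 14.1 and 2.68 in the AV junction and 36.5 and 44.3 in the ventricular region. The Npr1 groups did not overlap, with the ventricular arrays higher, but all 4 arrays were below their control, so no fold is given. When limma was run with no filter on brightness, over 22626 probe sets, the adjusted p was 0.123 for Npr1 and 0.783 for Npr2. These readings do not show that the receptors were absent, since the arrays measured neither well above background.

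Pam was lower in the AV junction by a smaller amount than the peptide genes. Its probe set 1418908_at gave 353 and 272 on the AV arrays, against 537 and 585 on the ventricular ones. The groups did not overlap, and the lower ventricular array was 1.52 times the higher AV array. The means were 312.5 ± 56.6 and 561 ± 33.8 (SD, n = 2), a ratio of 1.79. The log2 fold was −0.76 with an SE of 0.17 (limma, adjusted p = 0.0251) and ranked 413 from the lowest among 8410 genes. This call did not hold under every setting. With AV array 1b left out the adjusted p was 0.088, with ventricular array 1a left out 0.0875 and with ventricular array 1b left out 0.109. It was 0.0545 with median scaling, 0.0642 with no filter on brightness and 0.0636 when the variance prior had no trend.

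**Figure D3:**
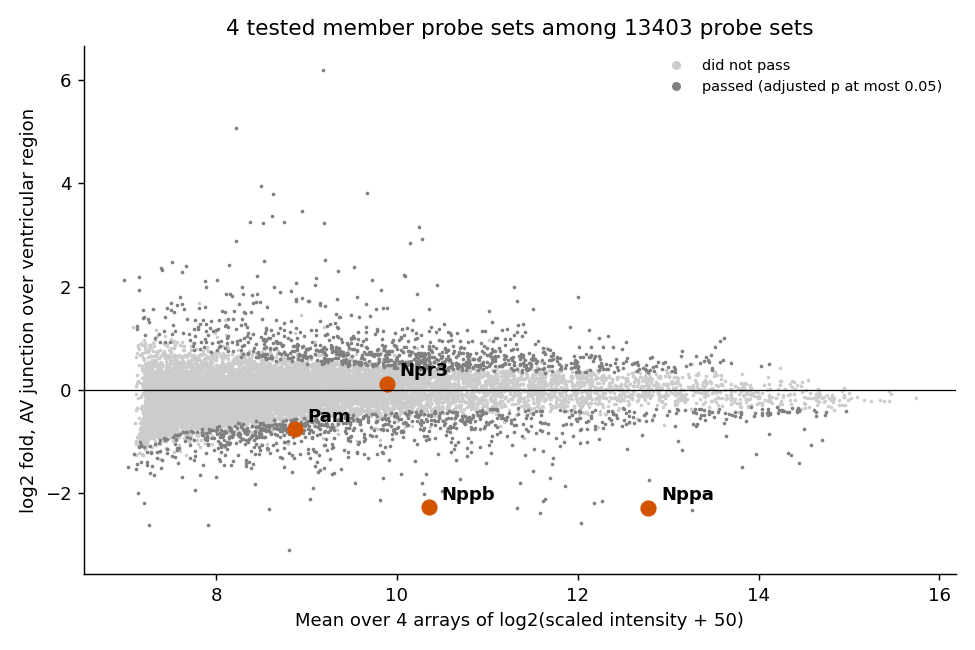
Log2 fold (AV junction over ventricular region) against the mean over 4 arrays of log2 scaled intensity plus 50, for the 13403 probe sets tested; dark points passed, light points did not, and the 4 tested member probe sets are marked. Nppa and Nppb lie near −2.28 and −2.27, at the lower edge of the cloud, Pam lies at −0.76 within the band of lower calls, and Npr3 lies close to 0.

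**Figure D4:**
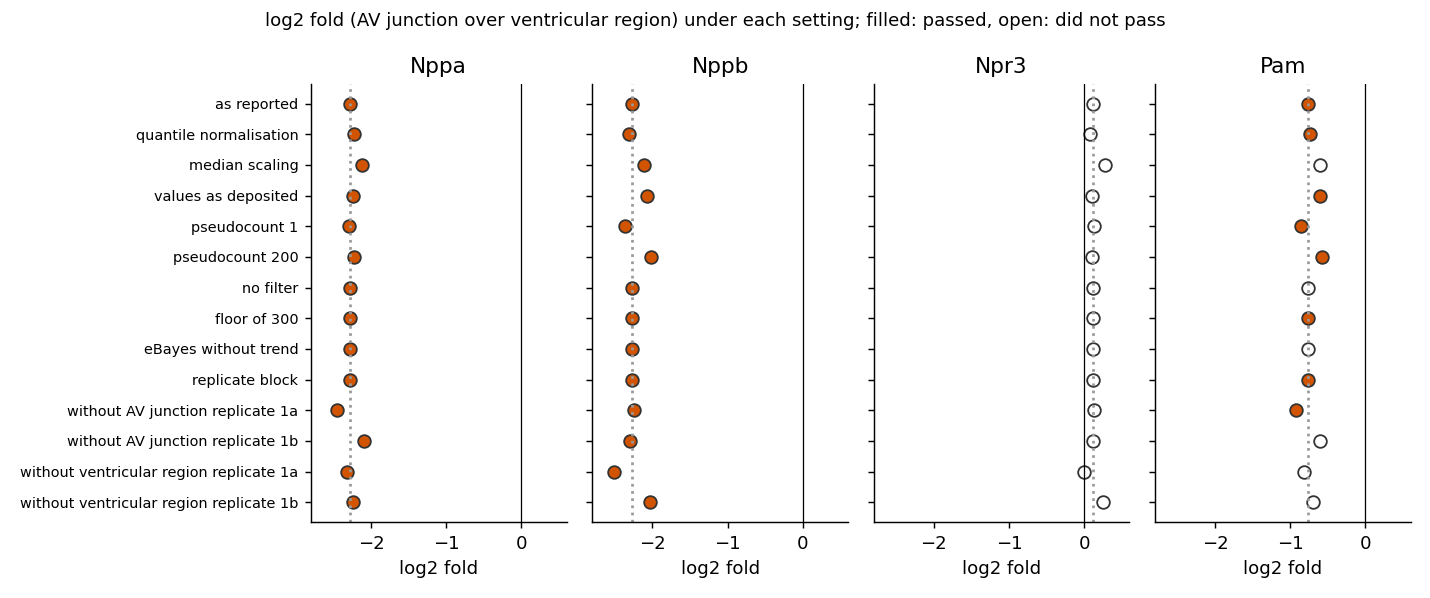
Log2 fold of the 4 tested member probe sets as reported and under each alternative setting, filled where the adjusted p was at most 0.05 and open where it was not; the dotted line is the reported value. Nppa and Nppb passed under all settings shown, Npr3 passed under none, and Pam stayed below 0 but passed under some settings only.

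On the same AV arrays, markers of ventricular muscle and of blood were lower as well. Markers of ventricular chamber muscle were lower for 6 of 7 genes, with a summed intensity of 51233 and 55844 in the AV junction against 121055 and 132764 in the ventricular region. Their median log2 fold was −1.41, against −0.06 over all 8410 genes tested. Among these markers Myl2, the ventricular myosin light chain, fell by 1.41 on the log2 scale and Smpx, which encodes a protein of the muscle cytoskeleton, by 2.16. Erythroid markers were lower for 4 of 5 genes and summed to 16040 and 16055 in the AV junction against 39390 and 44849 in the ventricular region. Of 4 tested atrial muscle markers 3 were higher and 0 lower, while their sums overlapped (39278 and 42622 against 34912 and 42069). In pooled tissue, fewer cells of a type and less RNA per cell cannot be told apart, and the part of tissue makeup in the peptide differences was not tested.

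Markers of the junction itself were higher. All 4 markers of AV canal muscle (Bmp2, Tbx2, Tbx3 and Msx2) passed as higher, and their sum was 3242 and 3043 in the AV junction against 481 and 460 in the ventricular region. Of 6 markers of cushion mesenchyme 5 were higher, and of 5 tested markers of endocardium and endothelium 2 were higher and 0 lower, while 5 of 5 epicardial markers did not pass. The endothelial sums were 2427 and 2876 against 1646 and 1803, the epicardial sums 2153 and 2375 against 2432 and 2730, and the cushion sums 5857 and 5442 against 851 and 963. Liver or yolk sac transcripts were higher for 3 of 3 tested genes, at a sum of 6908 and 6364 against 266 and 199. Their part in the results was not tested. Pecam1, a defining endothelial marker, was below the control on all 4 arrays. Tbx2, Twist1, Prrx1, Papss2, Sln, Afp, Ttr and Apoa1 were below it on both ventricular arrays.

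The genes whose profile over the 4 arrays lay nearest to Nppa were Tmem71, Tm4sf1, Smpx, Retreg1 and Hemgn, in that order. Likeness here is the Euclidean distance between log2 values, each gene centred on its own mean over the 4 arrays, among 8409 other genes. The distances ran from 0.18 to 0.38, and Nppb came next at 0.41. For Nppb the nearest were Smpx, Tm4sf1, Cited1, Hemgn and Tmem71, at 0.30 to 0.40, followed by Nppa. Cited1 read 10.7 and 13.4 on the AV arrays, below the control of each, and 287 and 376 on the ventricular ones. It was bright enough to test through its ventricular arrays alone. The fold of Cited1 and its distance to Nppb therefore rest on AV readings below background and on the constant added before logs were taken. Of the 5 nearest genes 4 were shared between the peptides, among them the muscle gene Smpx and the erythroid gene Hemgn. The log2 folds of the shared genes ran from −2.16 to −2.11. Few genes lie that low, so the region folds alone make such sharing likely. For Pam the nearest was Mme, at a distance of 0.03, then Gng13, Rmdn1, Gab2 and Galns, at up to 0.08. Of these Mme, Gng13 and Galns did not pass (limma, adjusted p = 0.0561, 0.106 and 0.0934). The folds of Pam and Mme ranked 413 and 371 from the lowest, so many genes lie close to them and short distances are likely. Mme encodes neprilysin, the protease that breaks down natriuretic peptides. A link between Pam and Mme was not tested. Each distance rests on 4 arrays of 2 regions.

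No tested gene beside Nppa and Nppb passed. In the RefSeq gene table no gene lies between the pair, whose annotated starts are 14822 bases apart on the same strand. Of the 5 genes on each side, 6 have probe sets with 1 symbol and 4 were tested (Miip, Mfn2, 2510039O18Rik and Clcn6, named after their values were seen). By limma 0 of their 4 tested probe sets passed, against the 6.58% lower and 7.24% higher of all probe sets at that threshold. At an unadjusted p under 0.05 there were 2, against 31.2% of all probe sets in either direction. Their log2 folds ran from −0.52 (Mfn2, a protein of mitochondrial fusion, adjusted p = 0.0578) to −0.08 (Clcn6, a chloride transporter of late endosomes, adjusted p = 0.888). Mfn2 read 449 and 368 in the AV junction and 592 and 622 in the ventricular region, so its arrays did not overlap. A dimmer Mfn2 probe set read 59.3 and 33.9 in the AV junction and 111 and 121 in the ventricular region, also without overlap. It was not bright enough to test. The 6 neighbours on the array have 9 probe sets, of which 4 were tested. The difference between the neighbours and the pair was not tested.

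Around the members, 73 genes in 5 lists cover peptides and proteases, cyclic GMP, secretory granules, amidated peptides and factors listed as acting on the Nppa promoter. Of the 64 on the array 42 were tested, each by its brightest probe set, and 12 passed as higher and 2 as lower. Over all 8410 genes 8.47% were higher and 6.54% lower. The median log2 fold of the 42 was 0.14, against −0.06 over all genes.

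Of the proteases that make or destroy natriuretic peptides, 1 passed. Of 5 tested, 1 passed as higher and 0 as lower, with a median log2 fold of −0.51. By limma 1, Mme, was lower at an unadjusted p under 0.05, against 31.2% of all probe sets in either direction. Corin, the membrane protease that cuts the atrial peptide out of its precursor, read 413 and 435 in the AV junction and 269 and 218 in the ventricular region. Neither AV array overlapped the ventricular arrays, with a log2 fold of 0.69 and an SE of 0.17 (limma, adjusted p = 0.0353). The Corin call was lost when any 1 of the 4 arrays was left out (adjusted p of 0.0693 to 0.136), with no filter (0.0835) and without the trend (0.0627). Mme read 128 and 93.2 in the AV junction and 217 and 233 in the ventricular region, and its log2 fold of −0.79 did not pass (limma, adjusted p = 0.0561). A dimmer Mme probe set was below the control on all 4 arrays. Furin, a general precursor-cutting protease, gave a log2 fold of 0.23 (adjusted p = 0.378). Ide, a peptide-degrading enzyme, did not pass on any probe set tested, and its dimmer ones gave −0.07 and −0.41. The brightest gave −0.51 and overlapped between regions, because its ventricular arrays read 1090 and 556. Its value rests on which ventricular array is kept: without ventricular array 1a the log2 fold was −0.05 (adjusted p = 0.895), and without ventricular array 1b it was −0.96 and passed (adjusted p = 0.0296). Nppc, the gene of C-type natriuretic peptide, read 15.4 to 38.9 on the 4 arrays, below the control on each.

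Cyclic GMP, the messenger made by the natriuretic receptors, is also made by soluble cyclases and broken down by phosphodiesterases. Of 8 tested genes of its synthesis, breakdown and action 0 were higher and 0 lower. At an unadjusted p under 0.05 by limma, a level that 31.2% of all probe sets reached, 1 was higher and 1 lower. These were the subunits of soluble guanylyl cyclase, the receptor of nitric oxide: Gucy1a1 with a log2 fold of 0.44 (adjusted p = 0.14, and 0.0496 with median scaling) and Gucy1b1 with −0.84 (adjusted p = 0.0671). A dimmer Gucy1a1 probe set overlapped between regions, gave 0.21 and did not pass (limma, adjusted p = 0.502). Gucy1b1 was singled out after its values were seen, and it read 86.8 and 61.0 in the AV junction and 181 and 159 in the ventricular region. The other gene of this list with a bright signal, Vasp, an actin regulator that is a substrate of cyclic GMP-dependent kinase, gave 0.14 (adjusted p = 0.561). Prkg1, a gene of that kinase, read 7.38 to 21.1, below the control on all 4 arrays. Prkg2, another gene of the kinase, read 88.1 and 132 in the AV junction and 103 and 83.8 in the ventricular region. Its log2 fold of 0.15 did not pass (limma, adjusted p = 0.745). The list's median log2 fold was 0.14.

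Secretory granule genes were mostly too dim to test. Of 10 on the array 4 were tested, and 1 passed as higher and 0 as lower, with a median log2 fold of 0.46. Cpe, a carboxypeptidase that trims prohormones, read 1179 and 1293 in the AV junction and 891 and 893 in the ventricular region. Its log2 fold was 0.45 (limma, adjusted p = 0.0408), and it missed when any 1 array was left out (adjusted p of up to 0.139) with quantile normalisation (0.0817), with no filter (0.0641) and without the trend (0.103). A dimmer probe set of Cpe gave −0.66 and did not pass (adjusted p = 0.124). The granins Chga, Chgb, Scg2, Scg3 and Scg5, which pack granules in endocrine cells, were not bright enough to test.

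Among amidated peptides and the receptors of adrenomedullin, a peptide that Pam amidates, 3 of 9 tested genes passed as higher and 0 as lower. The median log2 fold was 0.14, and by limma 1 gene, Vip, was lower at an unadjusted p under 0.05. Of all probe sets 31.2% were under that p in either direction. Vip read 62.3 and 43.9 in the AV junction and 135 and 169 in the ventricular region. It was bright enough to test through its ventricular arrays alone, and AV array 1b was below its control. Gal, the gene of the neuropeptide galanin, read 498 and 608 in the AV junction and 133 and 98.3 in the ventricular region, and its log2 fold was 1.87 (adjusted p = 0.00174). Ventricular array 1b was below its control for Gal, so 1 of the 2 ventricular readings is not above background. Calcrl, the receptor of adrenomedullin, read 1066 and 741 against 258 and 215 (log2 fold 1.72, adjusted p = 0.00235). Ackr3, a decoy receptor that also binds adrenomedullin, read 1779 and 1420 against 496 and 495 (1.59, adjusted p = 8.85e-04). These 3 genes passed when any 1 array was left out. Adm itself, the adrenomedullin gene, read 148 and 137 in the AV junction and 4.36 and 16.4 in the ventricular region. It was under the brightness needed for the test, and against the control of the ventricular arrays it was at least 1.41-fold higher in the junction. The receptor partners Ramp1, Ramp2 and Ramp3 did not pass (log2 folds of −0.05, 0.14 and −0.22).

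Transcription factors listed here as acting on the Nppa promoter went both ways. Tbx2 and Tbx3 were also counted above as markers of AV canal muscle, and Irx4 and Hey2 as markers of ventricular chamber muscle. Of 16 tested, 7 passed as higher and 2 as lower, with a median log2 fold of 0.19. Tbx2, which represses Nppa in the AV canal, read 423 and 451 in the AV junction and 70.4 and 55.7 in the ventricular region. Both ventricular arrays were below their control, so Tbx2 was at least 4.32-fold higher. The limma call (adjusted p = 0.00116) used those below-control readings and does not test that bound. Tbx2 was bright enough to test through its AV arrays alone. Its relative Tbx3 read 769 and 869 against 196 and 218 (log2 fold 1.76, adjusted p = 7.83e-04). The repressor Hey1 read 833 and 866 against 418 and 362 (1.03, adjusted p = 0.00418). In the other direction Irx4, a factor of ventricular identity, read 207 and 220 in the AV junction and 725 and 767 in the ventricular region (−1.59, adjusted p = 9.79e-04).

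The others that passed, named after their values were seen, were Tbx20 (log2 fold 0.91), Tbx5 (0.87), Gata5 (0.80) and Gata6 (0.62), all higher, and Hand1 (−0.76), which was lower. Tbx5 and the Gata factors are known activators of Nppa. Hand1 missed when either AV array or ventricular array 1b was left out, and under 5 of the 9 other settings tried (adjusted p of up to 0.208), which leaves 1 lower factor. Tbx20 missed when AV array 1b (adjusted p = 0.0713) or ventricular array 1a (0.0727) was left out, and Gata6 when any 1 array was left out. Dimmer probe sets of Tbx20, Gata5 and Gata6 gave 0.18, 0.14 and 0.33 and did not pass. Nkx2-5, Gata4, Mef2c and Srf, core factors of heart muscle, did not pass (log2 folds of −0.45, −0.04, 0.13 and −0.30). Nor did the repressor Hey2 (−0.73, adjusted p = 0.0604) or Myocd, the partner of serum response factor (−0.67, adjusted p = 0.0561). By limma 5 factors were lower at an unadjusted p under 0.05, Srf, Myocd and Hey2 beside Irx4 and Hand1, and 7 were higher. Of all probe sets 31.2% were under that p in either direction. No factor's binding was measured here.

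**Figure D5:**
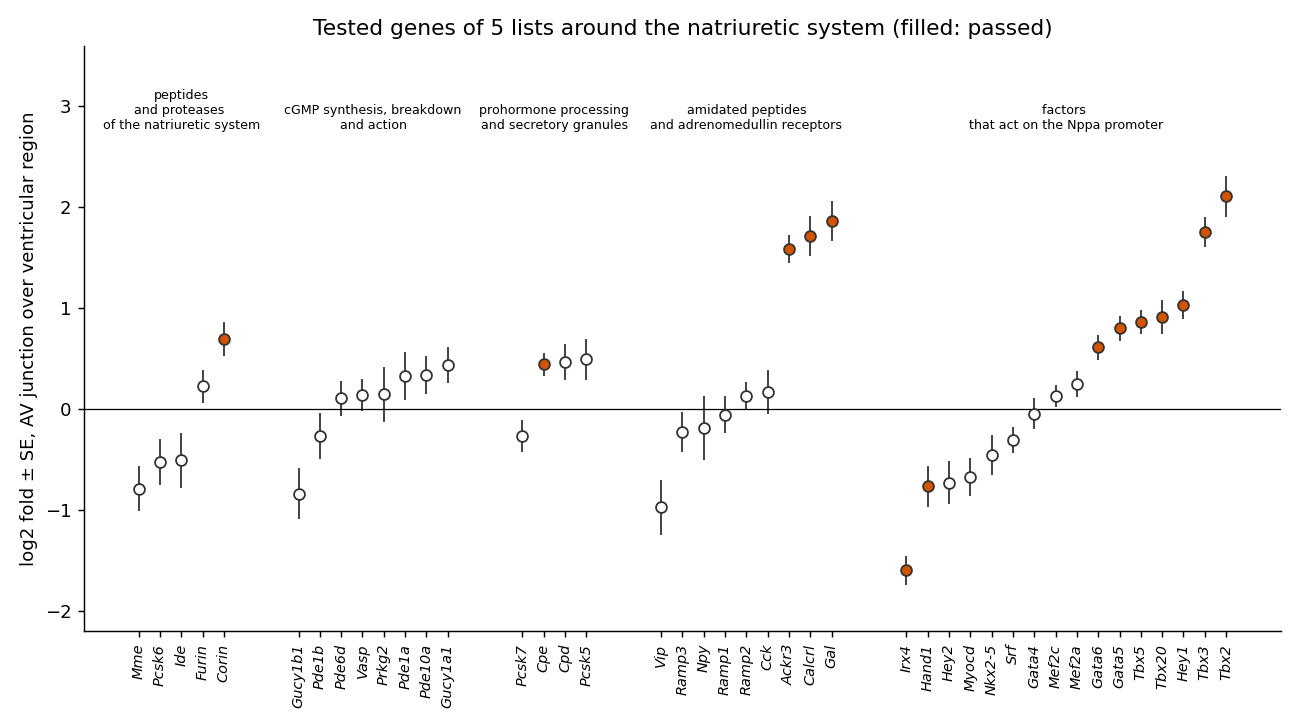
Log2 fold with its standard error (AV junction over ventricular region, n = 2 arrays each) for the 42 tested genes of the 5 lists, each by its brightest probe set, ordered within each list; filled points passed and open points did not. The points furthest from 0 are Tbx2, Gal, Tbx3 and Calcrl above it and Irx4 below it, and no cyclic GMP gene passed.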

How the data were processed

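The authors deposited 1 linear intensity per probe set and array, made with MAS5 per the submitters' processing notes; its version, detection calls and the genome build are not given in the sources used here. Each array was rescaled to a trimmed mean of 500 (2% cut at each end). Probe sets with a mean of at least 100 were fitted as log2(intensity + 50) in limma 3.58.1 (lmFit, eBayes with trend; R 4.3.3) on region alone, over all 13403 probe sets, and p-values were adjusted over all of them by Benjamini and Hochberg's method. The fit was tested on simulated data, drawn as independent arrays from its own variance prior. Such data cannot show the effect of duplicate hybridisations of 1 pool. A gene in a list was represented by its brightest probe set. Named genes are all member probe sets, up to 4 passing genes per list (or, where none passed, the 2 brightest), the 5 genes on each side of Nppa and Nppb where they passed, and the 5 nearest profiles of each member that passed; other genes were named after their values were seen. The members, lists and rules were chosen with earlier results of these data known. Platform symbols were checked through Entrez IDs against GRCm38.p6, and 0 changed. All 6 genes matched the RefSeq promoter table (Pam with 2 windows). Figures were drawn with matplotlib 3.10.9.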

Additional observations from a re-analysis of the deposited data

How the results depend on the processing

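Nppa, Nppb and Npr3 kept their direction and their side of the threshold under all 13 alternatives tried (quantile normalisation, median scaling, the values as deposited, pseudocounts of 1 and 200, no filter on brightness, a filter at 300, no trend in eBayes, a replicate block and each array left out), with log2 folds of −2.46 to −2.10, −2.51 to −2.02 and 0.00 to 0.28. Pam kept its direction but missed with median scaling (−0.60), with no filter or eBayes without trend (−0.76 in both), and without 3 of the 4 arrays, where its log2 fold ran from −0.92 to −0.60 over the 4 arrays left out. A changed filter, eBayes without trend and the replicate block leave the log2 fold as reported, so they could not change a direction. The arrays had nearly equal scale factors (3.351 to 3.354), so the values as deposited differ mainly through the pseudocount and the filter. With 1 array left out a lone array is assumed to vary like the pair of the other region. Median scaling moved the median log2 fold of all probe sets by 0.16 and gave 1714 higher and 459 lower probe sets, 78.9% of calls higher against 52.4% (970 and 882) as reported; under it Nppa was at −2.12 and Nppb at −2.11. No filter gave 580 and 431, eBayes without trend 326 and 343, and leaving out an array 402 to 534 and 254 to 522. Of the 5 lists, lower genes numbered 1 with quantile normalisation, median scaling or no filter, 4 when probe sets of a gene were averaged, and 1 to 2 with an array left out, against 2 as reported. The replicate block (letters a and b) gave 5 lower list genes and 1344 higher and 1375 lower probe sets; deviations of the 1a arrays from their region's mean correlated at 0.06 between regions, so the letters are not shown to pair the arrays. Without detection calls, signal over background limits Npr1, Npr2 and the dim Npr3 probe sets.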
